A study of Mus musculus with 8 samples.

Results

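Ly6a, Ly6c1, Ly6c2 and Ly6e are 4 of the 52459 genes listed in an RNA sequencing study of regulatory T (Treg) cells, and they encode small surface proteins of the lymphocyte antigen 6 (Ly6) family. They were taken by symbol, and Ly6c1 was chosen by its higher level in stimulated cells labelled Stim1/2-deficient, so that values of that contrast are a description without a test. Treg cells were sorted as CD4+CD25hi from spleen and lymph nodes of C57BL/6 mice and labelled Foxp3+CD25+. The 8 libraries form 4 groups of 2: WT unstimulated, labelled deficient unstimulated, WT stimulated and labelled deficient stimulated. The genotype label of the deficient cells names Stim1 fl/f and Stim2 fl/fll with Foxp3-YFPcre, which stands for loxP-flanked Stim1 and Stim2 with a Cre recombinase driven by the Foxp3 promoter. Per the methods, both genotypes came from female heterozygous animals, WT cells being those without YFPcre, so that genotype coincides with expression of that allele. Each sample pooled several mice, and their age is not given in the sources used here. Stimulated cells received 1 µg/ml plate-bound anti-CD3/CD28 for 16 h. Nothing states that replicates were sorted independently, so p-values measure the spread between these samples, which may be technical.

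Ly6 proteins share a compact disulfide-bonded fold and are mostly held in the outer membrane by a glycosylphosphatidylinositol (GPI) anchor. Ly6a is Sca-1, known as a stem cell marker and as a surface antigen that rises on T cells with activation and interferon. Ly6c1 and Ly6c2 encode the 2 forms of Ly6C, which antibodies rarely separate and which mark monocytes, plasma cells and subsets of T cells, among them resting Treg cells. Ly6e, formerly thymic shared antigen 1, is broadly expressed and interferon-inducible. STIM1 and STIM2 sense calcium in the endoplasmic reticulum and open the calcium release-activated calcium (CRAC) channel, which activates the transcription factor NFAT after T cell receptor stimulation.

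All 4 genes lie on chromosome 15 (GRCm38, RefSeq). Ly6e spans 74955025 to 74959904, Ly6a 74994877 to 74998031, Ly6c1 75044018 to 75048920 and Ly6c2 75108161 to 75112066. Ly6c1 and Ly6c2 are near copies. Their coding sequences were identical at 387 of 396 positions (97.7%), whereas Ly6a and Ly6c1 shared 82.0% and Ly6e shared 50.5% to 53.8% with the others. A stretch of 60 coding bases, from base 6 to base 65, holds 6 of the 9 coding differences between the copies. It is shown because such differences, in this stretch and outside it, decide which gene a read is assigned to. The differing bases are in capitals.
Ly6c1: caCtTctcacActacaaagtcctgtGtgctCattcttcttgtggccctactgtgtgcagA
Ly6c2: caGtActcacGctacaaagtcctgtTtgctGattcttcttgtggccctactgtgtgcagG
Reads were 50 bases long, so windows of that length were compared with the rest of the Ly6 locus and with other coding transcripts. Of 791 windows of Ly6c1 transcripts, 31.9% occurred elsewhere without a mismatch and 94.3% with up to 2 mismatches, 662 of them in Ly6c2. For Ly6c2 the shares were 34.1% and 96.7% of 747 windows. Ly6a had 13.9% and 45.5% of 770 windows, whereas Ly6e had 0 of 2395. Counts of Ly6c1 and Ly6c2 are therefore uncertain in how reads were split or dropped between the copies, and Ly6a in part, while those of Ly6e are free of this within the sequences searched.

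Promoter sequences from RefSeq (GRCm38.p6) were at hand for 2 of the 4 genes, Ly6c1 and Ly6c2. They are shown because these near copies had different levels. Each runs from 250 bases before to 50 bases after the first listed start site, on the minus strand, at chr15:75048788-75049087 for Ly6c1 and chr15:75111922-75112221 for Ly6c2. Capitals mark the NFAT core GGAAAA.
Ly6c1 promoter: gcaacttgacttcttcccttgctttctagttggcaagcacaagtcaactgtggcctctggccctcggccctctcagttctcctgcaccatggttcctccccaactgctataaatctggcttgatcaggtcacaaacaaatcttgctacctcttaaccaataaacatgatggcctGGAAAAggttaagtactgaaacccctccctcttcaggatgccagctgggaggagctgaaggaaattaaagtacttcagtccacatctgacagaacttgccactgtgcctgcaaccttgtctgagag
Ly6c2 promoter: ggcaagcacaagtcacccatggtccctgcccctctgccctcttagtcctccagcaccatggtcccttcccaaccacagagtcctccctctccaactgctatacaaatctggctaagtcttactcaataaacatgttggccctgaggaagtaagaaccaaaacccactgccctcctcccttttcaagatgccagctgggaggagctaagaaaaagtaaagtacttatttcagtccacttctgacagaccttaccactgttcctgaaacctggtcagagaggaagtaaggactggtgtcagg
The promoters were identical at 208 of 334 aligned positions (62.3%). Each window has 300 bases, so these positions include gaps, some of them because the 2 windows are offset. The share is therefore not comparable with that of the coding sequences. Both strands were searched for GGAAAA, for the interferon regulatory factor repeat GAAANNGAA and for the STAT-type palindrome TTCNNNGAA. The Ly6c1 window held 1 match, a GGAAAA at position -76 from the start site, and the Ly6c2 window held none of the 3 patterns. Among 32817 promoters of the same length, 23.3% held GGAAAA, 8.55% GAAANNGAA and 8.29% TTCNNNGAA, so that a match by these letters is common.

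Values are read counts per gene divided by a library factor, called normalized counts. Libraries held 11851853 to 16306540 reads on genes, 1 read equalled 0.759 to 1.48 normalized counts, and the limit that a count of 0 allows (3 reads) was 2.28 to 4.43. A mean over libraries of 10 or more normalized counts let 15419 genes into a limma fit on log2(value + 1), including 4 of the 4 Ly6 genes. Genes past 1.5-fold with an adjusted p below 0.05 are called changed. Fold changes are on this scale, which understates changes of low genes. Stim1 had 552 to 642 normalized counts in stimulated labelled libraries and 645 to 673 in WT, and 1538 to 1868 against 1139 to 1377 without stimulation. Stim2 differed by -0.15 (limma adjusted p = 0.721) and -0.13 (adjusted p = 0.827) on the log2 scale. A deleted exon is not visible in whole-gene counts, so these values do not check the genotype, and libraries are called labelled deficient throughout. Unstimulated libraries were sequenced in lane 4 and stimulated ones in lane 1, so stimulation and lane cannot be told apart. Rescaling to equal totals raised the median of all genes with stimulation to 0.52 in WT and 0.35 in labelled deficient cells on the log2 scale, from 0.01 and -0.03. It turned 1580 higher and 2013 lower calls in WT into 4258 and 974, and 1997 and 1855 in labelled deficient cells into 3791 and 1077. Summed markers of other cells also varied. 10 B cell genes summed to 349 and 391 normalized counts in WT unstimulated, 3978 and 978 in labelled deficient unstimulated, 1116 and 231 in WT stimulated, and 1730 and 382 in labelled deficient stimulated libraries (replicates in ascending number). For 14 monocyte and macrophage genes the sums were 2476 and 2396, 10636 and 1887, 1280 and 941, and 830 and 551. Ccr2, which T cells also express, held most of the WT sums, and the other 13 genes, a subset set after the sums were seen, gave 459 and 487, 10093 and 1676, 337 and 189, and 453 and 379. The Treg and CD4 T cell list, 7 of 7 detected everywhere, summed to 109237 and 102767, 48859 and 65157, 102005 and 119753, and 73293 and 90280. Its 7 genotype differences were all below 0 in unstimulated and in stimulated cells, where 49.7% and 51.4% of all genes were above 0. In unstimulated cells Ctla4 and Ikzf2 were called lower, at -1.79 and -1.13 on the log2 scale (limma adjusted p = 0.0271 and 0.0142), as were 3.35% of all genes.

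Per kilobase of exon, Ly6e was the most abundant of the 4 genes in unstimulated cells and Ly6a in stimulated cells. In WT unstimulated cells Ly6e had 2844 ± 479 normalized counts per kilobase (SD, n = 2), Ly6a 432 ± 98.6, Ly6c1 116 ± 32.2 and Ly6c2 9.38 ± 0.142. In labelled deficient unstimulated cells the levels were 2138 ± 534 for Ly6e, 501 ± 342 for Ly6a, 408 ± 21.5 for Ly6c1 and 61.6 ± 39.6 for Ly6c2, and the libraries of Ly6a and Ly6c1 overlapped. After stimulation, WT cells held 3674 ± 226 per kilobase of Ly6a, 2149 ± 249 of Ly6e, 161 ± 34.6 of Ly6c1 and 24.9 ± 27.1 of Ly6c2. Labelled deficient stimulated cells held 7363 ± 112 of Ly6a, 2833 ± 340 of Ly6e, 1726 ± 206 of Ly6c1 and 81.9 ± 85.9 of Ly6c2. The ratio of Ly6a to Ly6e per kilobase lay between 0.145 and 0.295 in the 4 unstimulated libraries and between 1.51 and 2.81 in the 4 stimulated ones, without overlap. Because reads shared between copies may have been dropped, levels of Ly6c1, Ly6c2 and Ly6a per kilobase may be too low, and the order of genes rests on that.

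**Figure D1:**
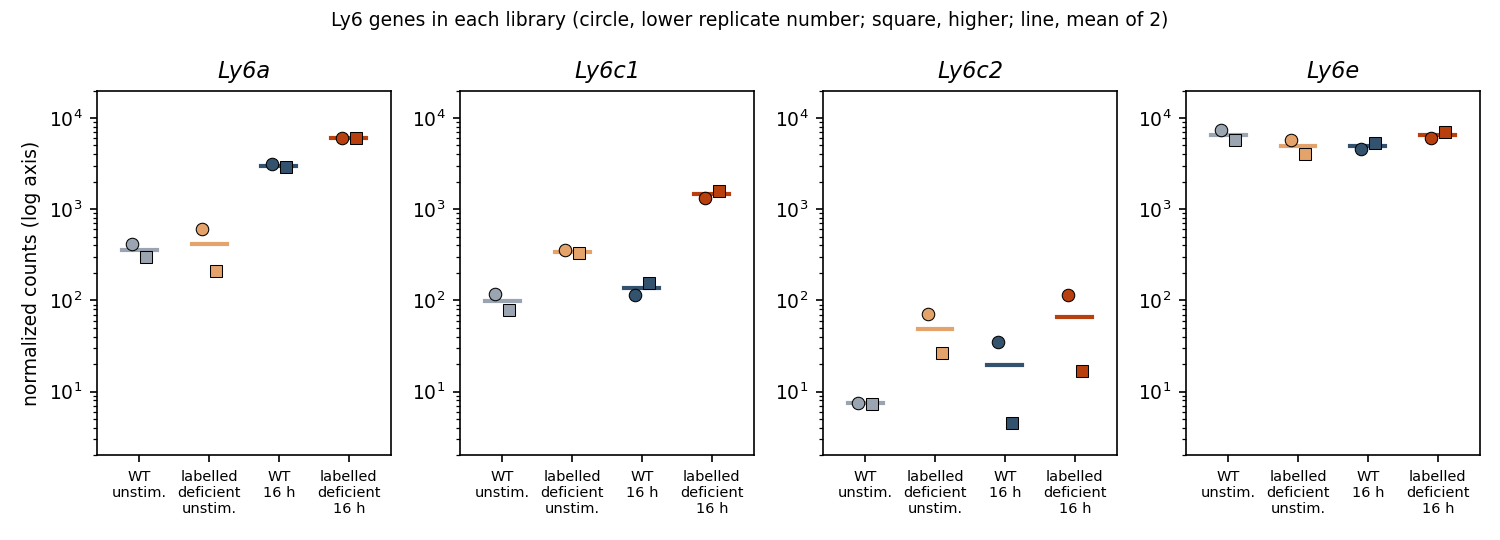
Normalized counts (log axis) of 4 Ly6 genes in each of 8 libraries, by group, with circles for the lower and squares for the higher replicate number and lines for the mean of 2. Ly6a separates stimulated from unstimulated libraries. Ly6c1 is above 320 in the 4 labelled deficient libraries, of which the stimulated ones chose it, and under 160 in the 4 WT libraries. Ly6c2 spreads widely within groups, and Ly6e stays between 4052 and 7324.

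Ly6a, the Sca-1 antigen, rose with stimulation in both genotypes. WT unstimulated libraries had 411 and 297 normalized counts and WT stimulated libraries 3140 and 2878. Labelled deficient libraries had 608 and 212 without stimulation and 5966 and 6096 with it. Every stimulated library lay above every unstimulated one. Within a genotype, stimulated libraries lay above unstimulated ones for 35% of all genes in WT and 30.8% in labelled deficient cells. The log2 difference with stimulation was 3.10 in WT cells (standard error 0.39, 8.58-fold, limma adjusted p = 0.00109), rank 101 from the highest of 15419 genes. In labelled deficient cells it was 4.06 (standard error 0.39, 16.7-fold, limma adjusted p = 0.000297), rank 18. Without labelled unstimulated replicate 1 this difference was 4.82, and without replicate 2 it was 3.31, both still called. Of all tested genes, 23.3% were called with stimulation in WT cells, 10.2% higher and 13.1% lower, and 1 of the 4 Ly6 genes was called higher. In labelled deficient cells 25% of genes were called, 13% higher and 12% lower, and of the 3 Ly6 genes tested there Ly6a was called. The larger difference in labelled deficient cells did not pass the interaction test, at 0.96 on the log2 scale (95% confidence interval -0.27 to 2.19, limma adjusted p = 0.662). No gene was called for that interaction (0%) by limma, with 1257 genes at an unadjusted p under 0.05, 0 called by edgeR and 48 by DESeq2. Without labelled unstimulated replicate 2 limma called 179 genes higher and 17 lower, and the interaction of Ly6a ran from 0.21 to 1.72 when 1 library was left out.

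Between genotypes, Ly6a overlapped in unstimulated cells, at a log2 difference of 0.04 (95% confidence interval -0.83 to 0.91, limma adjusted p = 0.966). The sign depended on single libraries. Without labelled replicate 1, which had the highest value, 608, and the highest sums of B cell and macrophage markers, the difference was -0.72 (limma adjusted p = 0.0922), without WT replicate 4 it was -0.19 (adjusted p = 0.891), and without labelled replicate 2 it was 0.80 (adjusted p = 0.0506, the lowest over all alternatives). The part of other cells in this was not tested. In stimulated cells, the contrast that chose Ly6c1, labelled libraries were 2.01-fold above WT, a log2 difference of 1.00 (standard error 0.39, no test), without overlap, as for 24.3% of all genes.

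Ly6c1 was higher in all 4 labelled deficient libraries than in any WT library. The stimulated ones chose the gene, so that part was set by the choice. Both labelled libraries lay above WT for 26.5% of all genes without stimulation and 24.3% with it. Unstimulated WT libraries had 117 and 78.3 normalized counts and labelled deficient ones 355 and 330. The log2 difference was 1.83 (standard error 0.28, 3.56-fold, limma adjusted p = 0.0106). Of all genes, 4.73% were called in this contrast, 1.38% higher and 3.35% lower, and Ly6c1 was the member called, at rank 493 from the highest. The counts behind these shares, 213 higher and 517 lower, became 0 and 8 without WT replicate 3, 7 and 16 without WT replicate 4, and 374 and 924 without labelled replicate 2. With a lone WT library the direction stayed and the call was lost, at 2.11 (limma adjusted p = 0.124) without WT replicate 3 and 1.55 (adjusted p = 0.0814) without WT replicate 4, while adjusted p over all alternatives ran from 1.18e-06 to 0.124. Without labelled replicate 1, the library richest in B cell and macrophage markers, the difference was 1.78 (limma adjusted p = 0.0203). Labelled replicate 2 also held more of these markers than WT, with a B cell sum of 978 against 349 and 391 and a macrophage sum without Ccr2 of 1676 against 459 and 487. Labelled replicates 1 and 2 had B cell sums of 3978 and 978 and macrophage sums of 10636 and 1887, and differed 1.08-fold in Ly6c1. The part of other cells in Ly6c1 was not tested. In bulk libraries, more cells with a transcript and more transcript per cell cannot be told apart.

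After stimulation, WT libraries had 115 and 156 normalized counts of Ly6c1 and labelled deficient libraries 1328 and 1572. The WT values overlapped those of unstimulated WT cells, with a log2 difference of 0.48 (95% confidence interval -0.14 to 1.10, limma adjusted p = 0.237). Rescaled to equal totals that difference was 0.99 and called (adjusted p = 0.0216, in a range of up to 0.753 over alternatives), a scaling that moved the median of all genes by a similar amount. The difference between genotypes in stimulated cells was 3.43 on the log2 scale (standard error 0.28, 10.7-fold), rank 12 of 15419. It is the value that chose the gene and is given without a test, in a contrast with 0.272% of genes called, 0.162% higher and 0.11% lower. These 25 and 17 genes became 211 and 551 without labelled stimulated replicate 1 and 0 and 0 without replicate 2, by limma. The difference with stimulation in labelled deficient cells was 2.07 (standard error 0.28, 4.21-fold), and the interaction was 1.59 (standard error 0.39), also without a test. Some marker sums of other cells moved in the same direction as Ly6c1 in stimulated cells, but not all genes of their lists did. Without Ccr2 the macrophage sums were 453 and 379 there and 337 and 189 in WT, and with Ccr2 they were 830 and 551 against 1280 and 941. Of 12 tested macrophage genes, 5 differences were above 0 and 5 below, with a median of 0 and none called. The sums of 8 CD8 T and NK cell genes were 1369 and 460 there and 717 and 257 in WT. These sums overlapped, and 6 of the 8 differences were above 0 and 2 below, with none called. Without stimulation the CD8 T and NK cell sums were 1194 and 374 in labelled deficient and 384 and 363 in WT cells.

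Plasma cell genes, of interest because Ly6C marks plasma cells, differed between genotypes in both directions. All 7 listed genes summed to 5507 and 5328 normalized counts in WT unstimulated and 3689 and 3555 in labelled deficient unstimulated libraries. There 4 of 6 tested differences were below 0 and 2 above, with a median of -0.38, and Irf4 was called lower at -1.90 (limma adjusted p = 0.0088). With stimulation the sums were 14902 and 13547 in WT and 16366 and 10182 in labelled deficient libraries, and 5 of 6 differences exceeded 0. Of 7 listed genes, Irf4 and Xbp1 are also expressed in T cells, and the other 5, a subset set after the sums were seen, summed to 69.1 and 108 normalized counts in WT unstimulated, 1879 and 505 in labelled deficient unstimulated, 271 and 61.5 in WT stimulated, and 515 and 239.8 in labelled deficient stimulated libraries. Jchain, which joins polymeric immunoglobulins, was called higher in unstimulated labelled deficient cells, at 4.09 on the log2 scale (limma adjusted p = 0.0302), Mzb1 differed by 3.87 (adjusted p = 0.0799), and Sdc1 differed by -1.74 (adjusted p = 0.426). In stimulated cells the differences were 2.05 for Sdc1 (limma adjusted p = 0.49), 1.75 for Mzb1 (adjusted p = 0.546) and 1.48 for Jchain (adjusted p = 0.5). Of 7 tested neutrophil genes the median difference was 1.99 in unstimulated and -0.04 in stimulated cells. Of 9 endothelial and stromal genes 1 passed the filter, Pecam1, an adhesion molecule also found on leukocytes. It had 2253 and 2393 normalized counts in WT unstimulated, 3621 and 5024 in labelled deficient unstimulated, 924 and 874 in WT stimulated, and 1161 and 2444 in labelled deficient stimulated libraries, higher in labelled deficient cells by 0.88 (limma adjusted p = 0.129) and 0.91 (adjusted p = 0.212). Cdh5 did not exceed 1.48 normalized counts, and Tie1 and Emcn had no read in any library. The part of these cells in the levels of Ly6c1 was not tested.

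Ly6c2 was the lowest of the 4 genes, and its replicates differed widely in 3 of the 4 groups. WT unstimulated libraries had 7.55 and 7.39 normalized counts, from 7 and 5 reads. Labelled deficient unstimulated libraries had 71.3 and 26.7, WT stimulated libraries 35.1 and 4.56, and labelled deficient stimulated libraries 114 and 16.9. In each of the 3 groups that hold replicates 1 and 2, replicate 1 was the higher, by 2.67, 7.69 and 6.72 times. The genotypes did not overlap in unstimulated cells, where 26.5% of all genes had both labelled libraries above WT. The log2 difference of 2.40 (95% confidence interval 0.11 to 4.70) was not called (limma adjusted p = 0.208). With stimulation the difference was 0.74 in WT (95% confidence interval -1.55 to 3.04, limma adjusted p = 0.638) and 0.02 in labelled deficient cells (-2.28 to 2.31, adjusted p = 0.992). Leaving out WT stimulated replicate 1 turned the WT difference to -0.61. In labelled deficient cells it became -1.32 without stimulated replicate 1 and -0.68 without unstimulated replicate 2. The genotype difference in stimulated cells was 1.68 (standard error 1.03, no test) with overlapping groups, although within same-numbered libraries the labelled one was 3.24 and 3.70 times the WT one. The interaction was -0.73 (-3.97 to 2.52, adjusted p = 0.917). The intervals of the stimulation differences and of the interaction span 0.

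Ly6c2 and several marker sums of other cells were higher in replicate 1 of the same 3 groups. The groups are labelled deficient unstimulated, WT stimulated and labelled deficient stimulated cells. B cell sums had this order, and so did neutrophil sums (1235 and 549, 586 and 302, 910 and 154.5). The sums of CD8 T and NK cell genes also had it, so the order is not particular to B cells. Monocyte and macrophage sums and plasma cell sums had it as well, each also without the genes left out above. Plasmacytoid dendritic cell sums had it too (2723 and 1583, 4467 and 4189, 4450 and 3267). Endothelial and stromal sums and Treg and CD4 T cell sums did not have it in every group. In WT unstimulated libraries Ly6c2 was 7.55 and 7.39 and B cell sums were 349 and 391. Ly6c1 was lower in replicate 1 of both stimulated groups and higher in replicate 1 of labelled deficient unstimulated cells. Each of the 10 B cell genes had reads in every library. Ms4a1, which encodes CD20, had 24.8 and 31.0 normalized counts in WT unstimulated, 699 and 148 in labelled deficient unstimulated, 263 and 19.0 in WT stimulated, and 312 and 61.6 in labelled deficient stimulated libraries. In unstimulated cells, 7 of 12 tested monocyte and macrophage genes were called higher and 1, Ccr2, lower in labelled deficient cells. Of all genes, 1.38% were called higher and 3.35% lower. The median of the list was 4.17 on the log2 scale beside -0.01 for all genes. Without WT replicate 3 or 4 limma called 0 of the 12, with medians of 3.90 and 4.21, and without labelled replicate 1 it called 2 higher and 1 lower, with a median of 2.71. Up to 5 of the 14 monocyte and macrophage genes were without a read in a library, and C1qa had no read in 6 of the 8. The part of these cells in Ly6c2 was not tested. Ly6c1 made up 76.6% to 98.9% of the reads of both copies.

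**Figure D2:**
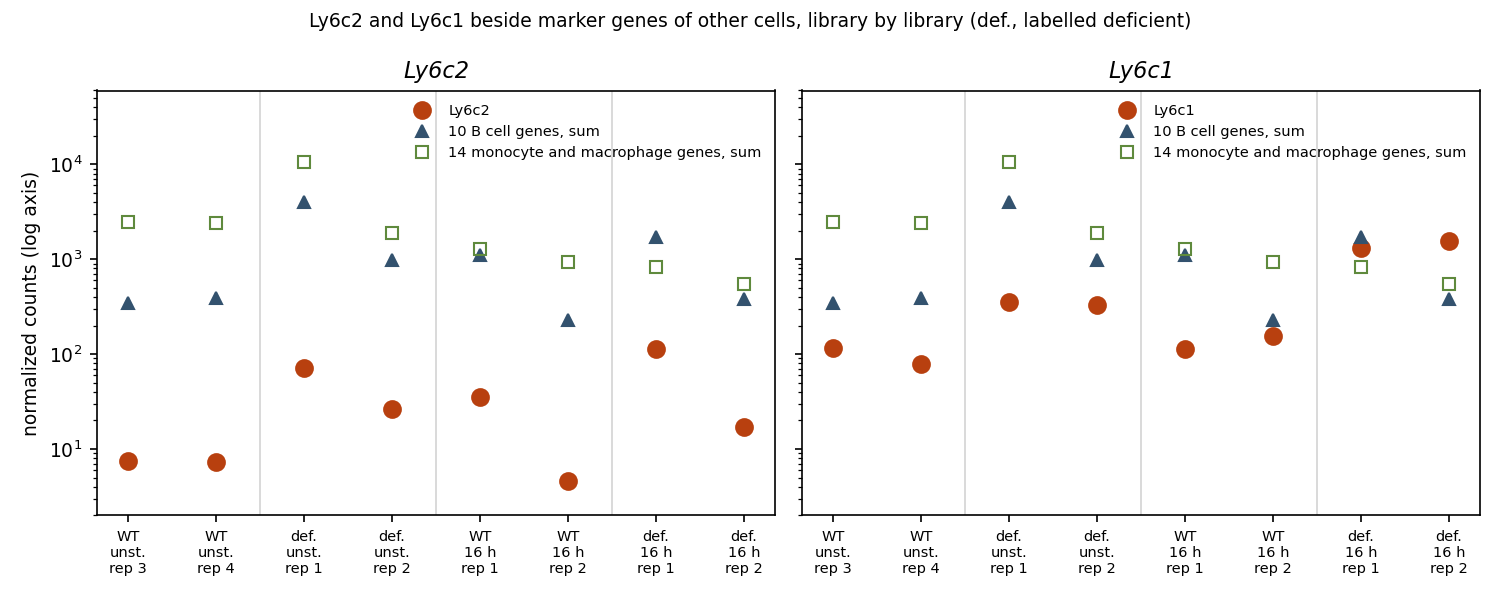
Normalized counts (log axis) of Ly6c2 (left) and Ly6c1 (right) in 8 libraries, beside the summed values of 10 B cell genes and 14 monocyte and macrophage genes. Ly6c2 is lowest, at 4.56, in the library with the lowest B cell sum, 231. Ly6c1 is highest, at 1572, in a library with a B cell sum of 382. The part of other cells in either gene was not tested.

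Ly6e varied least across the 8 libraries. WT unstimulated libraries had 7324 and 5764 normalized counts, labelled deficient unstimulated 5789 and 4052, WT stimulated 4541 and 5350, and labelled deficient stimulated 5965 and 7072. In order of the means, labelled deficient unstimulated (4921), WT stimulated (4945), labelled deficient stimulated (6519) and WT unstimulated (6544) cells, the first pair and the last pair each overlapped. The genotype difference without stimulation was -0.42 (95% confidence interval -0.91 to 0.06, limma adjusted p = 0.288). With stimulation labelled libraries lay above WT, at 0.40 (standard error 0.22, no test). The difference with stimulation was -0.40 in WT cells (-0.89 to 0.09, limma adjusted p = 0.212), with both stimulated libraries below both unstimulated ones, as for 36% of all genes, and it turned to 0.12 with equal totals and 0.08 with quantile normalization. In labelled deficient cells it was 0.42 (-0.06 to 0.91, limma adjusted p = 0.18), with both stimulated libraries above, as for 30.8% of all genes. Equal totals raised it to 0.81 (adjusted p = 0.0209) and quantile normalization to 0.78 (adjusted p = 0.0294), both called. Without labelled unstimulated replicate 1 it was 0.68 and called (adjusted p = 0.0287), and over all alternatives adjusted p ran from 0.0209 to 0.589. The interaction, 0.82 (0.13 to 1.51), had an unadjusted p of 0.0238 and a limma adjusted p of 0.569.

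**Figure D3:**
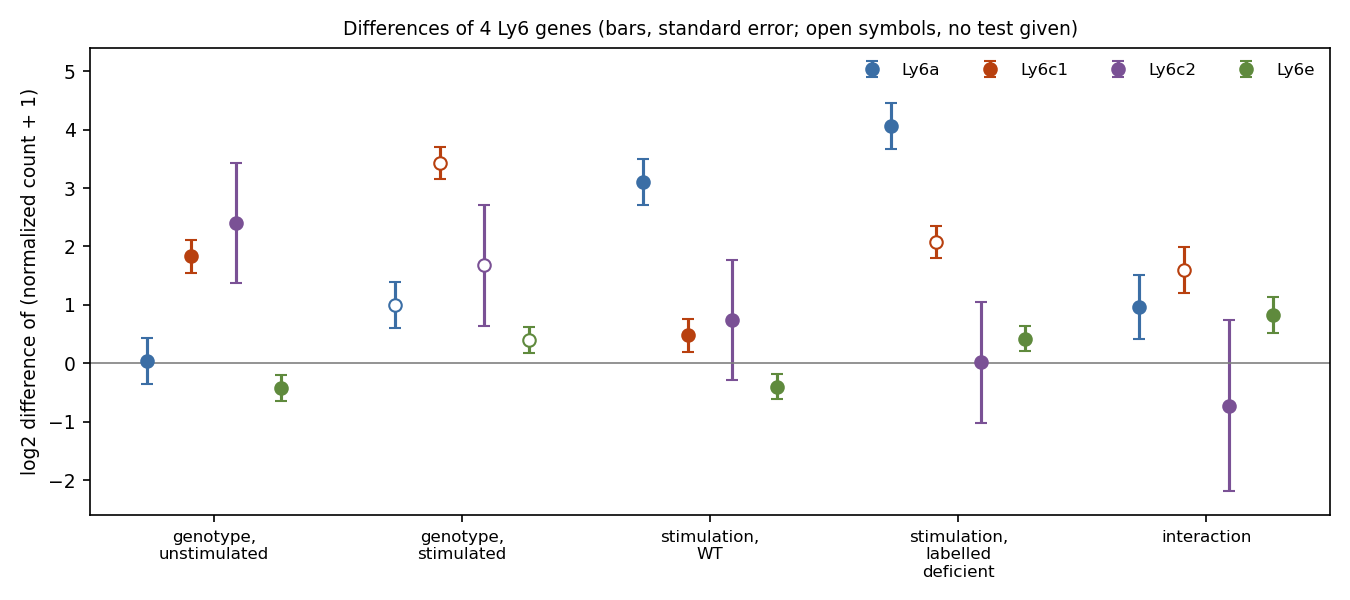
Log2 differences of 4 Ly6 genes for genotype (labelled deficient over WT), stimulation and their interaction, with standard errors from a fit with 2 libraries per group. Open symbols mark values given without a test. Ly6a has the highest stimulation differences (3.10 and 4.06), Ly6c1 the highest genotype difference in stimulated cells (3.43), and Ly6c2 the widest errors (1.03, and 1.46 for the interaction).

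Of the wider Ly6 and uPAR family, 40 further genes were listed and 7 passed the filter, while 14 of the others had no read in any library and the remaining 19 reached at most 12 reads. Plaur, the urokinase receptor, was the most abundant of the 7. It had 127 and 81.3 normalized counts in WT unstimulated, 169 and 346 in labelled deficient unstimulated, 35.1 and 50.1 in WT stimulated, and 58.8 and 76.0 in labelled deficient stimulated libraries. It fell with stimulation in labelled deficient cells by 1.84 on the log2 scale (limma adjusted p = 0.0125), while in WT cells the difference was -1.26 (adjusted p = 0.0586). Ly6d, a marker of B cell and plasmacytoid dendritic cell development, had 5.4 and 1.48, 31.5 and 8.01, 4.68 and 0, and 39.7 and 10.1 in the same order of groups. Like Ly6c2 it was higher in replicate 1 of those 3 groups. Ly6i had 5.4 and 1.48, 18.9 and 14.7, 14.03 and 2.28, and 23.8 and 7.60. Lynx1 had 13.3 to 39.9 in unstimulated libraries, 14.8 and 25.8 in WT stimulated, and 62.7 and 70.1 in labelled deficient stimulated libraries, where the genotype difference was 1.71 (limma adjusted p = 0.196). Ly6k, Lypd6b and Ly6g5b ranged from 3.24 to 28.6, 2.16 to 27.3 and 0 to 38.7 across the 8 libraries. In unstimulated cells the 7 differences between genotypes were all above 0, from 0.65 to 2.15, as were 49.7% of all genes. The lowest limma adjusted p was 0.127, for Plaur. These genes passed the filter on a mean that their higher groups could set.

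Because Ly6a and Ly6e are known to respond to interferon, 42 other interferon response genes were set beside them. Of all genes, 10.2% rose and 13.1% fell with stimulation in WT, and 13% and 12% in labelled deficient cells. Between genotypes, 1.38% of all genes were called higher and 3.35% lower without stimulation, and 0.162% and 0.11% with it. In WT cells more of the 42 fell than rose with stimulation, while Ly6a rose, except that with equal totals 7 rose and 5 fell. In the main fit 16 of 42 fell and 3 rose there, with a median of -0.54 on the log2 scale beside 0.01 for all genes. With equal totals these medians were -0.03 and 0.52, and leaving out 1 WT library left 3 to 5 falling and at most 1 rising. The antiviral GTPase Mx1 fell by 3.41 (limma adjusted p = 0.00401) and Mx2 fell by 3.17 (adjusted p = 0.0022). Ifit3b fell by 3.37 (adjusted p = 0.0221) and Rsad2 fell by 2.79 (adjusted p = 0.0266). With stimulation 10 of 42 rose and 4 fell in labelled deficient cells, with a median of 0.29, and with equal totals 16 rose and 2 fell, while without unstimulated replicate 1 it was 11 and 1. The direction rested on single libraries, since without unstimulated replicate 2 the counts were 6 and 7 (median -0.20) and without stimulated replicate 2 they were 4 and 6 (median -0.13). The tetherin gene Bst2, also GPI-anchored, rose by 1.88 (limma adjusted p = 0.00136). Rsad2 fell by 2.93 (adjusted p = 0.0207), and Cmpk2 fell by 1.97 (adjusted p = 0.0239). Between genotypes in stimulated cells, 5 of 42 were called higher (Ifit1, Ifit1bl1, Ifit3, Oasl2 and Rtp4, named after their values were seen) and 40 of 42 differences were above 0, as were 51.4% of all genes, with a median of 0.87. The calls depended on the test, with 0 of 42 by edgeR and 19 of 43 by DESeq2, whose medians were 0.87 and 0.86, and limma called 16 of 42 with 1 labelled unstimulated library left out, whichever it was, and 0 with stimulated labelled replicate 2 or any 1 WT library left out, with 39 or 40 differences above 0. Ifit3, of the interferon-induced tetratricopeptide family, differed by 3.69 (limma adjusted p = 0.0313) and had 12.5 and 12.2 normalized counts in WT stimulated and 139 and 209 in labelled deficient stimulated libraries. Ifit1bl1 and Ifit1 differed by 3.23 (adjusted p = 0.0392) and 2.63 (adjusted p = 0.0313). In unstimulated cells 3 of 42 were called higher and 1 lower, among them Oas2, an oligoadenylate synthetase, at 2.36 (limma adjusted p = 0.0346) and Ifit1bl1 at 2.30 (adjusted p = 0.0322). Without labelled unstimulated replicate 1, the library rich in other-cell markers, 0 were called higher and 1 lower by limma, and the median fell from 0.39 to 0.13. Without WT replicate 3 or 4 limma called 0. The genotype and stimulation contrasts share libraries, so their values are given side by side and not as separate evidence. Of 12 interferon receptor and signalling genes, Socs1, a feedback inhibitor of cytokine signalling, rose with stimulation by 3.07 in WT (limma adjusted p = 0.000875) and 3.23 in labelled deficient cells (adjusted p = 0.000571). In WT cells 4 of the 12 fell, among them the receptor chain Ifnar1 with a difference of -1.97 (limma adjusted p = 0.000904), Jak2 with -2.18 (adjusted p = 0.00518) and Jak1 with -1.37 (adjusted p = 0.00357). With equal totals 3 rose and 3 fell. Stat2, a transcription factor of type I interferon signalling, rose in labelled deficient cells by 0.96 (limma adjusted p = 0.00652), and Jak1 fell by 1.31 (adjusted p = 0.00378), the 1 of 12 that fell there, against 4 without unstimulated replicate 1.

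**Figure D4:**
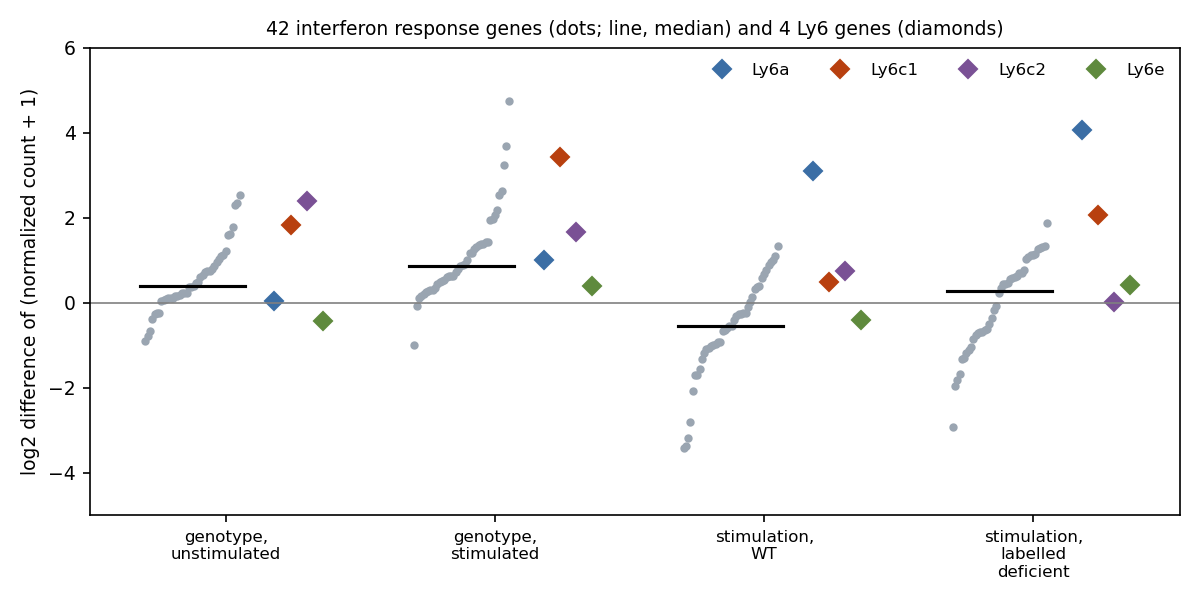
Log2 differences of 42 interferon response genes (dots, line at the median) and of 4 Ly6 genes (diamonds) in 4 contrasts. In WT cells after stimulation the list has a median of -0.54 while Ly6a stands at 3.10, and between genotypes in stimulated cells, where Ly6 values carry no test, the list has a median of 0.87 and Ly6c1 stands at 3.43.

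The machinery that builds and attaches GPI anchors held 30 tested genes. With stimulation 6 rose and 2 fell in WT cells (median 0.52), where 10.2% of all genes rose and 13.1% fell. In labelled deficient cells 9 rose and 2 fell (median 0.66), beside 13% and 12% of all genes. Pigw, an inositol acyltransferase of the pathway, rose by 2.41 in WT (limma adjusted p = 0.00363) and 1.68 in labelled deficient cells (adjusted p = 0.0148), and Dpm3, of dolichol-phosphate-mannose synthase, by 1.79 (adjusted p = 0.0201) and 1.87 (adjusted p = 0.0159). Pgap1, which trims the inositol of finished anchors, fell by 1.42 in WT (limma adjusted p = 0.00351) and fell by 2.34 in labelled deficient cells (adjusted p = 0.000367). With equal totals, which raised all genes, 17 rose and 1 fell in WT and 18 rose and 1 fell in labelled deficient cells. Leaving out 1 WT library left 1 rising in WT, and leaving out 1 labelled deficient library left 3 to 11 rising in labelled deficient cells. Among 12 tested genes of other GPI-anchored surface proteins of lymphocytes, 3 rose and 1 fell in WT and 4 rose and 3 fell in labelled deficient cells with stimulation. The complement regulator Cd55 fell by 2.87 in WT (limma adjusted p = 0.000797) and fell by 2.86 in labelled deficient cells (adjusted p = 0.000666). Sema7a rose by 1.29 (limma adjusted p = 0.0388) and 1.94 (adjusted p = 0.00684), and Cd24a fell by 2.90 (adjusted p = 0.0032) in labelled deficient cells. Between unstimulated genotypes 2 of the 12 were called, both lower, where 3.35% of all genes were called lower. They were Izumo1r, once named folate receptor 4, at -1.17 (limma adjusted p = 0.0397) and Nt5e, the ectonucleotidase CD73, named after its values were seen, at -0.85 (adjusted p = 0.0264).

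Ly6C is used as a mark of resting Treg cells, so lists of resting T cell and effector Treg genes were set beside Ly6c1. In unstimulated labelled deficient cells, 3 of 15 resting T cell genes were called higher (median 0.83), among them Actn1 at 1.32 (limma adjusted p = 0.0223). Differences were above 0 for 12 of the 15 and below 0 for 3, among them Ccr7 at -1.07 (adjusted p = 0.271). Of 18 effector Treg genes, 16 were called lower (median -2.40), where 3.35% of all genes were called lower and 1.38% higher. Among them were Klrg1 at -5.06 (limma adjusted p = 0.0252), Il1rl1 at -4.34 (adjusted p = 0.0179), Il10 at -4.06 (adjusted p = 0.00106) and Tigit at -3.61 (adjusted p = 0.0203). The study had reported many of these effector genes as lower in these same data, so the count is a description and not independent support. Without labelled replicate 1 the counts were 7 of 15 and 15 of 18, without WT replicate 3 they were 0 and 3, and without WT replicate 4 they were 0 and 4, while the 18 effector genes all stayed below 0 in each of these fits. In stimulated cells limma called 1 of 15 resting genes higher and 4 of 18 effector genes lower. Of all genes it called 0.162% higher and 0.11% lower. With edgeR 0 genes of both lists were called, and DESeq2 called 8 resting genes higher and 1 lower and 10 effector genes lower. Without labelled unstimulated replicate 1 limma called 7 resting genes higher and 10 effector genes lower. Igfbp4, of the resting list, had 35.1 and 23.5 normalized counts in WT and 137 and 309 in labelled deficient libraries, a difference of 2.80 (limma adjusted p = 0.0392). Itgae, of the effector list, differed by -2.74 (adjusted p = 0.0392). With stimulation 11 of the 15 resting T cell genes fell in WT and 10 in labelled deficient cells (medians -1.38 and -1.29), beside 13.1% and 12% of all genes. Ly6c1, chosen for its level in stimulated labelled deficient cells and given without a test, was 4.21-fold higher in stimulated than in unstimulated labelled deficient libraries. Klf2, a regulator of T cell quiescence, fell by 1.79 in labelled deficient cells (limma adjusted p = 0.00693) and S1pr1, a receptor for egress from lymphoid organs, fell by 1.94 (adjusted p = 0.0112).

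The genes most like each member across libraries were ranked by Pearson's r of log2(value + 1) over the 8 libraries, among 8381 genes with a mean of at least 100. The libraries fall into 2 lanes that coincide with stimulation, and the values of r are a description. For Ly6a the first 5 were Wars (0.989), Immp1l (0.989), Csnk2a1 (0.988), Rpl22l1 (0.988) and Arfip2 (0.987). For Ly6c1 they were H2-T24 (0.960), Fam26f (0.957), Pum2 (0.945), Ifi214 (0.945) and Slfn1 (0.944). Slfn1, a schlafen gene, had 583 and 657 normalized counts in WT unstimulated, 1935 and 1118 in labelled deficient unstimulated, 683 and 694 in WT stimulated, and 2134 and 2871 in labelled deficient stimulated libraries, the same order of groups as Ly6c1 in that both labelled groups stood above both WT groups. For Ly6c2 they were Ms4a1 (0.949), Wdfy4 (0.946), Mef2c (0.946), Cog1 (0.942) and Tnfrsf13c (0.940), of which Ms4a1 and Tnfrsf13c encode the B cell surface proteins CD20 and BAFF receptor. For Ly6e they were Zbtb14 (0.950), Mdp1 (0.944), Phf11b (0.935), Ndufa13 (0.924) and Hsd17b4 (0.922). Among the 4 Ly6 genes themselves r was 0.58 for Ly6c1 and Ly6c2, 0.56 for Ly6a and Ly6c1, and between -0.20 and 0.26 for the other 4 pairs.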

How the data were processed

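The 8 RNA libraries of sorted Treg cells were assigned to 4 groups of 2 by their labels. The authors deposited signal values, which are gene-wise read counts over a size factor of each library, rounded to 2 decimals. Whole reads were recovered from 100% of values, and DESeq2 size factors departed from the authors' scaling by at most 9.69e-05 percent. The methods name Bowtie with unique reads on NCBIM37, duplicate removal and HTSeq, whereas the submitters' processing notes name bcl2fastq 1.8.4, STAR 2.7, mm10 and DESeq2. Of the 52459 symbols, 54.9% were in GENCODE vM1 of NCBIM37 and 35095 in RefSeq GRCm38, so positions and promoters are given in GRCm38, and exon lengths, windows and coding sequences come from GENCODE vM1. Methods and labels also differ on whether the kit kept strand. Duplicate removal, if applied, would compress the highest values.

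Values were fitted with limma 3.58.1 in R 4.3.3 (lmFit, eBayes with trend) on log2(value + 1) in 1 model of 4 groups, for genes averaging 10 or more normalized counts, 2-sided, with Benjamini-Hochberg adjustment over all genes of a contrast. Settings were varied with pseudocounts of 0.1 and 5, other filters, equal totals, upper quartiles, quantile normalization, the count models of edgeR 4.0.16 (glmQLFit and glmQLFTest) and DESeq2 1.42.0 on whole reads, the libraries of a contrast alone, a replicate term and each library left out, where the remaining library of a group is assumed to vary like the other groups. Counts of gene lists and markers under these settings, and marker sums without the genes that Treg cells also express, were added after seeing the data. The script was tested on simulated data. Named genes are the 4 Ly6 genes, family members that passed the filter, up to 4 genes of each list with the largest difference in the contrast described, and the 5 most similar genes of each Ly6 gene. The genes and lists were chosen with earlier results of these data known. Confidence intervals come from the limma standard error, that is from the spread between libraries. Limits from reads cover counting error only.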

Additional observations from a re-analysis of the deposited data

Results flagged for a closer look

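Ly6e values went opposite ways with stimulation in the genotypes. Both stimulated WT libraries lay below both unstimulated WT libraries, and both stimulated labelled deficient libraries lay above both unstimulated ones. The interaction was 0.82 on the log2 scale (standard error 0.31, limma adjusted p = 0.569). With equal totals or quantile normalization the WT difference turned above 0.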

How the results depend on the processing

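Of 359 values under alternative settings for 20 member differences, 340 kept their direction and their side of the threshold, or stayed within 1 SD where no test was given. Many of these settings cannot change the log2 difference itself. Examples are other filters, a replicate term and leaving out a library outside the contrast. The count therefore overstates how stable the differences are. Leaving out 1 library at a time gave the unstimulated genotype difference of Ly6a a range of -0.72 to 0.80 and that of Ly6c1 1.55 to 2.11. For Ly6c2 it gave -0.61 to 2.09 with stimulation in WT, -1.32 to 1.36 with stimulation in labelled deficient cells and -2.07 to 0.62 for the interaction. For Ly6e with stimulation in labelled deficient cells the range was 0.17 to 0.68, and for the interaction of Ly6c1 1.31 to 1.88. Equal totals gave 0.99 for Ly6c1 and 0.12 for Ly6e with stimulation in WT, and 0.81 for Ly6e and 2.46 for Ly6c1 with stimulation in labelled deficient cells. Quantile normalization gave Ly6e 0.079 in WT and 0.78 in labelled deficient cells, and equal upper quartiles gave Ly6c2 -0.068 in labelled deficient cells. The cause was not tested.

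The unstimulated groups share no replicate number. In the other groups a replicate block left the stimulation difference of Ly6a in labelled deficient cells at 4.06 (limma adjusted p = 5.41e-05) and changed no other call among the 2 other Ly6 differences tested with it. For all genes it moved the stimulated genotype calls from 42 to 89 higher and 177 lower. Same-numbered libraries deviated together (r = 0.11 to 0.26 across 15419 genes), but 2 numbers do not establish pairs. For all genes, unstimulated genotype calls were 730 by limma, 484 by edgeR and 1324 by DESeq2, and in stimulated cells 42, 1 and 544. With 2 libraries per group, 5 to 143 reads of Ly6c2 and shared sequence between copies limit what can be seen.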
